A study of Mus musculus with 19 samples.

Results

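The insulin-like growth factor (IGF) axis and insulin receptor genes were followed in mouse mammary glands and HER2+ mammary tumors. The members were the 10 genes Igf1, Igf1r, Insr, Irs1, Irs2, Igfbp2, Igfbp3, Igfbp4, Igfbp5 and Igfbp7, found by matching their symbols to the Ensembl identifiers of the RNA-seq table, and each matched 1 of the 46078 genes listed. RNA-seq had been performed on 19 samples in 5 groups to ask whether mutant p53 in stromal fibroblasts changes gene expression in glands and tumors. All 10 members passed the filter on low values in every comparison, so none was set aside.

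MGWT were glands of 3 wild type mice, age-matched to the tumor-bearing animals. MGN were 4 glands of N mice, in which fibroblasts keep wild type p53. By the sample records, replicate 1 of MGN had the genotype MMTV-neu;Fsp-Cre and the other 3 had MMTV-neu;p53wm-R172H/+ without Cre. MGNP were 4 glands of NP mice, genotype MMTV-neu;p53wm-R172H/+;Fsp-Cre. TN were 4 tumors with the genotype MMTV-neu;Fsp-Cre, and TNP were 4 tumors with MMTV-neu;p53wm-R172H/+;Fsp-Cre. All MGN, MGNP, TN and TNP mice carried MMTV-neu, which expresses ERBB2 (HER2) in the mammary epithelium, on a mixed FVB, C57 and BALB/c background. The p53wm-R172H allele makes wild type p53 until Cre converts it to the mutant, and Fsp-Cre expresses Cre in fibroblasts, so a single allele was mutant and the change was limited to Cre-expressing cells. The glands of N and NP mice came from tumor-bearing females and held no malignant lesion. Ages in weeks and the day of processing are not given in the sources used here. The library names of TNP replicates 1 and 2 share a number, and whether they came from the same mouse is not stated. The study calls the samples of a group biological replicates.

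IGF1 is a secreted growth factor made in the liver under growth hormone and locally by stromal cells, and in the mammary gland it supports the growth of the ducts. It binds the receptor tyrosine kinase IGF1R. Insulin binds the related receptor INSR, and both receptors phosphorylate the docking proteins IRS1 and IRS2, which recruit PI3K. The IGF binding proteins hold IGFs in serum and tissue and can restrain or prolong their action.

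Recovered reads per library ranged from 54677315 to 62645459 in MGWT and from 20899152 to 27262440 in the other 16 libraries, so the MGWT glands were sequenced more deeply. The labelled tissues also differed in cell type markers. Most white fat markers were nearly absent from MGWT, where Adipoq was 1.7 to 23.4 normalized counts against 36543 to 47029 in MGN and 14468 to 38749 in MGNP. Fabp4 and Lipe were low but not absent in MGWT, at 1047 to 1429 and 788.5 to 1298. In MGN they were at 88148 to 128649 and 18415 to 25592, and in TNP at 258.5 to 618.5 and 284.5 to 455.2. In MGN against MGWT all 8 adipocyte markers, all 8 skeletal muscle markers, 5 of 8 fibroblast markers and 6 of 6 macrophage markers were called higher, and all 7 luminal and all 6 basal epithelial markers were called lower. MGNP against MGWT had the same calls for adipocyte (8 of 8), skeletal muscle (8 of 8) and epithelial (7 of 7 and 6 of 6) markers, and 2 of 8 fibroblast markers higher. Muscle markers took 0.0478 to 7.26% of the reads in MGNP and at most 0.0894% in any library of the other groups. TN against MGN and TNP against MGNP each had 6 of 7 luminal markers higher and all 8 adipocyte, 6 of 6 basal and 6 of 6 endothelial markers lower. The other luminal marker, Krt19, was called lower in both, at 33.7 to 215.1 in TN against 2833 to 3515 in MGN, and 72.4 to 1512 in TNP against 1528 to 5624 in MGNP. The basal marker Krt5 was 3.4 to 26.3 in TN and 5 to 19.5 in TNP. The TN tumors had Cre without the p53wm-R172H allele, and 3 of the 4 MGN glands had the allele without Cre, so TN and MGN also differ in genotype. The adipocyte markers Plin1 and Lep were at 0 in at least 1 TN library. In bulk RNA, fewer cells of a type and less RNA per cell cannot be told apart, and the part of tissue makeup or depth in the results below was not tested except where a value is given.

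Promoters of the 2 docking protein genes are shown because both hold the E-box CACGTG and the heptamer TGTTTTG, known as an insulin response element. Each stretch covers 120 bases, from 130 to 11 bases before the RefSeq start site, on the minus strand of GRCm38.p6, at chr1:82291450-82291569 for Irs1 and chr8:11008940-11009059 for Irs2. Capitals mark both motifs.
Irs1: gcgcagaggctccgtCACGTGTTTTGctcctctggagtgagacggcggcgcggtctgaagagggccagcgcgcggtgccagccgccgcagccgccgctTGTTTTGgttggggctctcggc
Irs2: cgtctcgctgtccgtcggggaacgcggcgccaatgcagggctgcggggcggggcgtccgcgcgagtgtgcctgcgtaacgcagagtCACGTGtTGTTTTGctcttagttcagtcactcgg
In Irs1 the E-box began 115 bases before the start site and overlapped a TGTTTTG that began 111 bases before it, and a second TGTTTTG began 32 bases before it. In Irs2 the E-box began 44 bases and TGTTTTG 37 bases before the start site, with a single base between them. Both strands were searched in RefSeq windows from 250 bases before to 50 after the start site, of which 9 of the 10 members had at least 1 (10 windows, with 2 for Igfbp2 and none for Insr). Of 32851 such windows, 7.15% held CACGTG, 6.28% held TGTTTTG and 0.41% held both, overlaps between the motifs included. Among members, CACGTG was also in the first Igfbp2 window and TATAAA in that of Igfbp4, against 13.62% of all windows with TATAAA. The FOXO site TGTTTAC was in no member window and in 3.65% of all windows. These are matches of letters, and no binding was measured.

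**Figure D1:**
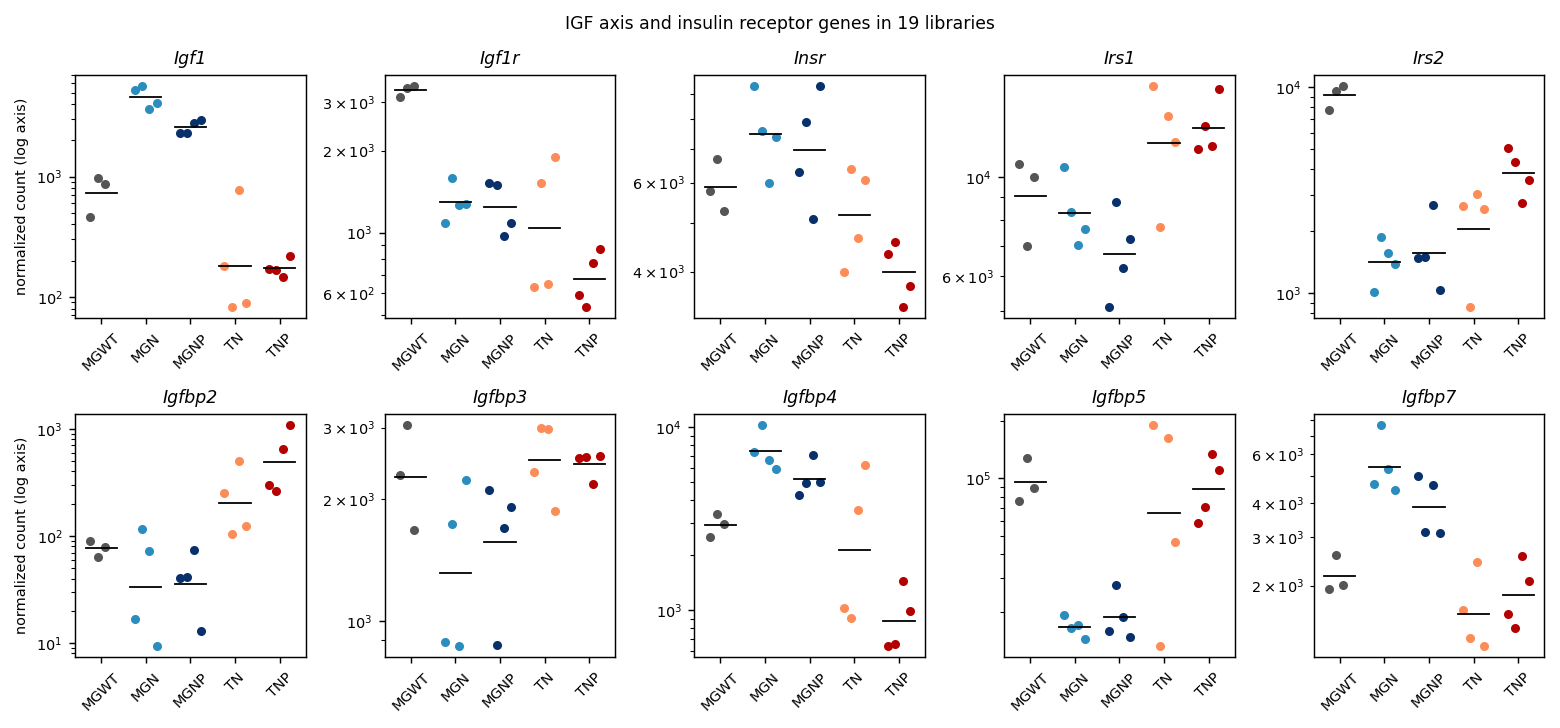
Normalized counts (log axis) of the 10 members in all 19 libraries, 1 panel per gene and 1 point per library, with groups on the horizontal axis and a line at the geometric mean of each group. Igf1 spans from 82.2 in a TN tumor to 5707 in an MGN gland, and the 3 MGWT glands lie above all other libraries for Igf1r and Irs2.

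The ligand, the receptors, the docking proteins and the binding proteins did not move together. A gene was called at an adjusted p under 0.05 by limma on log2(normalized count + 1), and fold changes are on that scale. Relative to MGWT, MGN glands had Igf1, Igfbp4 and Igfbp7 higher and Igf1r, Irs2 and Igfbp5 lower, 3 members in each direction of the 10. Over all genes tested in that comparison 30% were called higher and 29.2% lower. MGNP glands had the same 6 members called in the same directions against the same 3 MGWT glands, where 22.4% of all genes were called higher and 24% lower. TN tumors relative to MGN glands had 2 of 10 members called higher (Igfbp2 and Igfbp3) and 3 lower (Igf1, Igfbp4 and Igfbp7), against 23.5% and 27.8% of all genes. TNP tumors relative to MGNP glands had 4 members higher (Irs1, Irs2, Igfbp2 and Igfbp5) and 5 lower (Igf1, Igf1r, Insr, Igfbp4 and Igfbp7), against 26.2% and 29.3% of all genes. The groups did not overlap for 6, 6, 2 and 10 of the 10 members in these 4 comparisons, and for 61.3%, 54.4%, 49.2% and 52.6% of all genes. With at least a 2-fold change also required, 1 member was higher in MGNP against MGWT (16.4% of all genes), 1 was higher in TN against MGN (12.8%) and 3 were lower in TNP against MGNP (24%). No member was called between MGNP and MGN or between TNP and TN. Median log2 fold changes of the 10 members in the first 4 comparisons were -0.46, -0.49, 0.11 and -0.08, beside 0.02, 0.02, -0.05 and -0.07 over all genes tested.

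**Figure D2:**
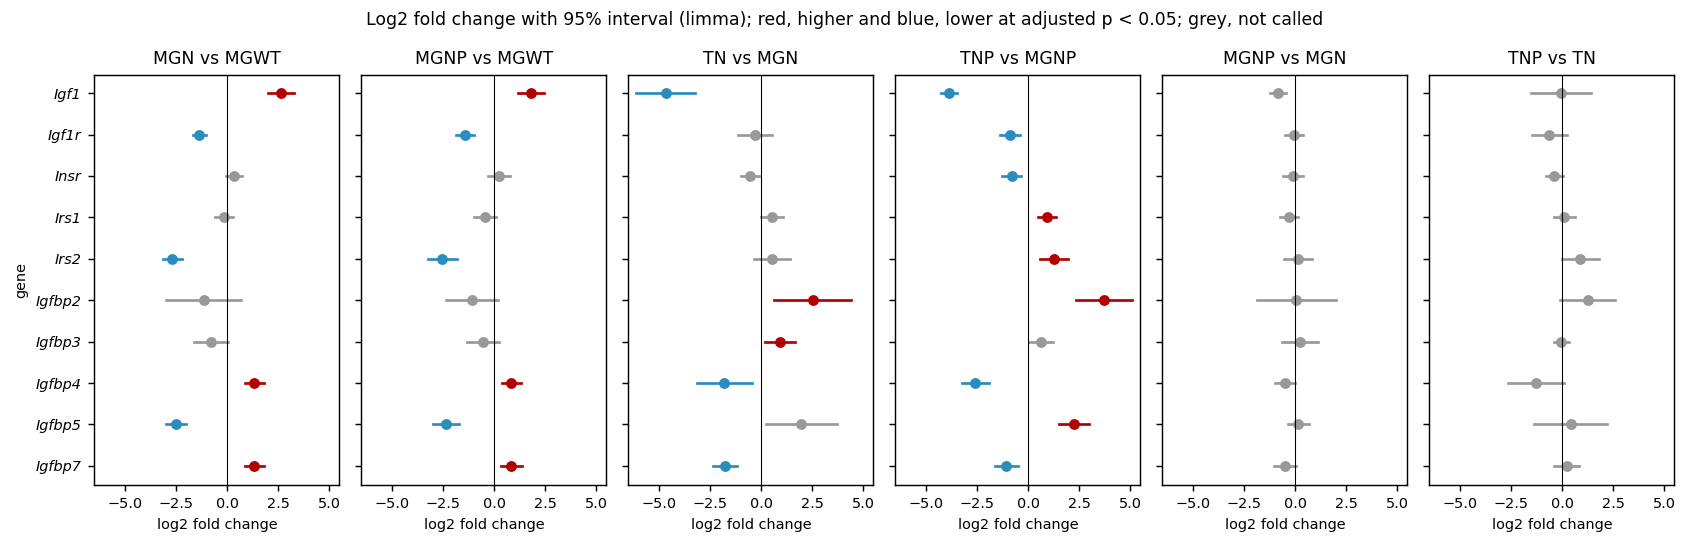
Log2 fold change of each member (first group minus second) with its 95% interval in 6 comparisons. Red marks members called higher, blue called lower and grey not called. Both gland comparisons with MGWT show Igf1 on the right and Irs2 and Igfbp5 on the left, both tumor comparisons show Igf1 at the far left, and every interval is grey in the last 2 panels.

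Igf1 (ENSMUSG00000020053, chr10:87858265-87937042, plus strand, GRCm38) varied the most between groups of the 10 members. Its normalized counts were 464, 973 and 864 in MGWT, 5258, 5707, 3629 and 4118 in MGN and 2291, 2312, 2806 and 2947 in MGNP. In tumors they were 182, 82.2, 777 and 88.7 in TN and 169, 168, 147 and 219.7 in TNP. Every gland of a tumor-bearing mouse was above every MGWT gland, and every MGWT gland but replicate 1 was above all 8 tumors, since TN replicate 3 lay above MGWT replicate 1. Igf1 was 6.29-fold higher in MGN than in MGWT (log2 fold change 2.65, SE 0.27, adjusted p = 0.000103) and 3.52-fold higher in MGNP than in MGWT (log2 fold change 1.81, SE 0.26, adjusted p = 0.00181). It was 25.5-fold lower in TN than in MGN (log2 fold change -4.67, SE 0.64, adjusted p = 0.000596) and 14.7-fold lower in TNP than in MGNP (log2 fold change -3.88, SE 0.17, adjusted p = 3.96e-06). Against MGWT, Igf1 was lower in TNP (log2 fold change -2.06, SE 0.27, adjusted p = 0.000195), while the TN value missed the threshold (log2 fold change -2.02, SE 0.75, adjusted p = 0.0504) and passed it without TN replicate 3 (log2 fold change -2.72, adjusted p = 0.00179).

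Between the glands of tumor-bearing mice, all 4 MGNP values of Igf1 were below all 4 MGN values, a pattern shared by 6.21% of genes tested there. The difference did not pass correction over 18563 genes (log2 fold change -0.84, SE 0.17, 95% interval -1.24 to -0.44, adjusted p = 0.305, unadjusted p = 0.00115), and DESeq2 on the recovered reads called it lower (adjusted p = 0.00395). The fibroblast score, the mean log2 value of 8 markers, was 11.67 to 12.35 in MGWT, 13.04 to 14.29 in MGN and 12.23 to 12.81 in MGNP, and thus also lower in every MGNP than in every MGN gland. In TN it was 10.84, 9.94, 12.76 and 10.29, with its highest value in replicate 3, the tumor with the most Igf1, and in TNP it was 10.02 to 10.92. The 8 fibroblast markers together took 0.501 to 1.8% of reads in MGN, 0.213 to 0.63% in MGNP, 0.111 to 0.981% in TN and 0.106 to 0.211% in TNP, and none of them was at 0 in any library. The parallel was not particular to fibroblasts. Adipocyte scores were also lower in every MGNP (13.295 to 14.658) than in every MGN gland (14.692 to 14.877). TN replicate 3 also had the highest adipocyte, muscle, macrophage, endothelial, lymphocyte and basal scores of all tumors. The part of any of these cell types in the Igf1 differences was not tested. MGNP replicates 2 and 4, which had the most muscle reads, were not apart from the other 2 glands in Igf1. With the muscle score in the fit, which is far higher in every MGNP than in every MGWT gland, the MGNP against MGWT call of Igf1 was lost (log2 fold change 2.00, adjusted p = 0.135), and without those 2 glands it stood (adjusted p = 0.00413).

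**Figure D3:**
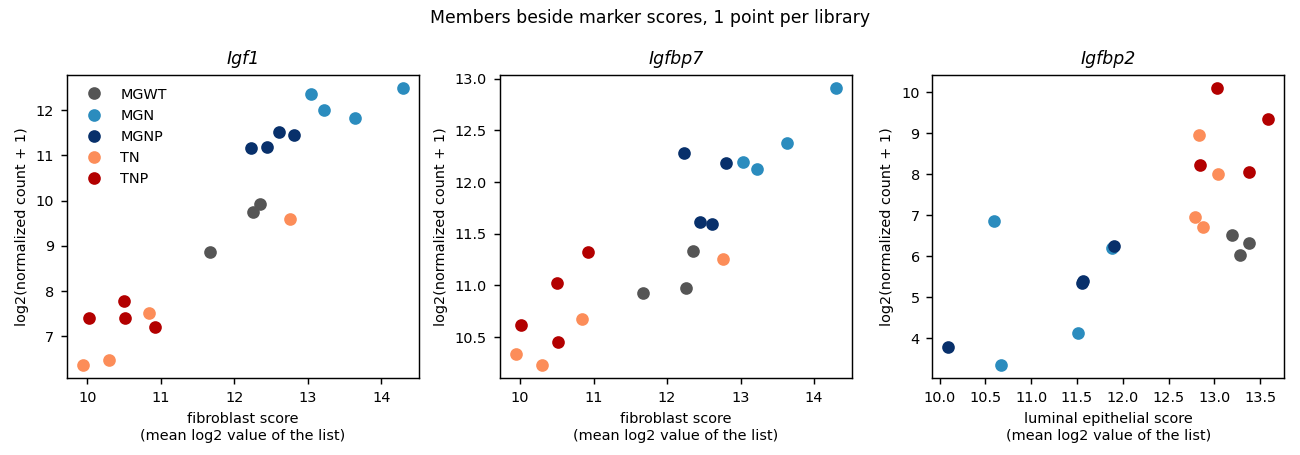
Igf1 and Igfbp7 against the fibroblast score and Igfbp2 against the luminal epithelial score, all in log2(normalized count + 1), with 1 point per library colored by group. MGN glands sit at the upper right and tumors at the lower left for Igf1, with TN replicate 3 at a score of 12.76 apart from the other tumors.

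The receptors differed in pattern. Igf1r (chr7:67952827-68233668, plus strand) had 3149, 3387 and 3459.8 normalized counts in MGWT, 1084, 1589.5, 1266 and 1272 in MGN and 1516, 1492, 968 and 1085 in MGNP. The tumors had 632, 1522, 645 and 1888 in TN and 591, 533, 773 and 868 in TNP. All 3 MGWT glands were above the other 16 libraries, and TN replicates 2 and 4 were above TN replicates 1 and 3 by more than the whole range of TNP. Igf1r was 2.58-fold lower in MGN (log2 fold change -1.37, SE 0.14, adjusted p = 9.28e-05) and 2.68-fold lower in MGNP (log2 fold change -1.42, SE 0.19, adjusted p = 0.00124) than in MGWT. It was 1.83-fold lower in TNP than in MGNP (log2 fold change -0.87, SE 0.22, adjusted p = 0.00867), and TN against MGN gave no call (log2 fold change -0.31, SE 0.37, 95% interval -1.14 to 0.52, adjusted p = 0.502). Adding the muscle score to the fit made the MGNP against MGWT value larger (log2 fold change -2.12, adjusted p = 0.0405) and the TNP against MGNP value smaller, and ended the latter call (log2 fold change -0.33, adjusted p = 0.47), and leaving out the most muscle-rich MGNP replicates 2 and 4 together kept it (adjusted p = 0.032).

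Insr (chr8:3122061-3279617, minus strand) moved within a narrow range. Its normalized counts were 5775, 6685 and 5265 in MGWT, 9331, 7581, 5978 and 7377 in MGN and 6286, 7909, 5074 and 9326 in MGNP, and 3992, 6382, 4664 and 6075 in TN and 4325, 4573, 3404 and 3754 in TNP. Only TNP stood below all glands. Insr was 1.75-fold lower in TNP than in MGNP (log2 fold change -0.80, SE 0.20, adjusted p = 0.00912) and 1.47-fold lower than in MGWT (log2 fold change -0.56, SE 0.14, adjusted p = 0.00615). The TN value against MGN lay just past the threshold (log2 fold change -0.53, SE 0.20, adjusted p = 0.0516) and was called without MGN replicate 3 (adjusted p = 0.0392) or without TN replicate 2 (adjusted p = 0.0346). With the muscle score in the fit the TNP against MGNP call was lost (log2 fold change -0.46, adjusted p = 0.343). Against MGWT neither gland group was called (0.1 and 0.392, adjusted p), although MGN was called without its replicate 3 (adjusted p = 0.0341).

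The ratio of Igf1r to Insr within a library does not depend on how libraries were scaled. It was 0.545, 0.507 and 0.657 in MGWT, 0.116, 0.21, 0.212 and 0.172 in MGN, 0.241, 0.189, 0.191 and 0.116 in MGNP, 0.158, 0.239, 0.138 and 0.311 in TN and 0.137, 0.117, 0.227 and 0.231 in TNP. All MGWT ratios were above all others, and the other 4 groups overlapped. Each comparison with MGWT gave the smallest p that the exact two-sided permutation test allows (0.0286), which became 0.0508 after adjustment over the 16 ratio tests, so none of them passed. Between TN and MGN the mean log2 ratio differed by 0.217 (exact permutation p = 0.543) and between TNP and MGNP by -0.068 (exact permutation p = 0.886).

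**Figure D4:**
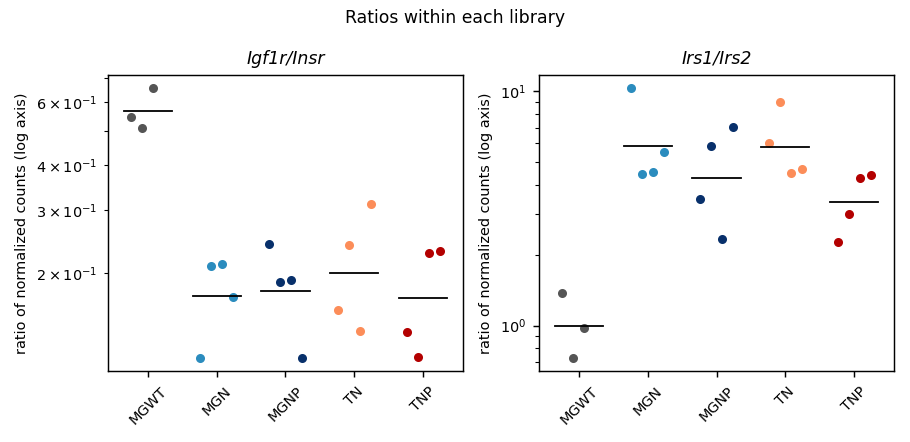
Ratios of normalized counts (log axis) of Igf1r to Insr and of Irs1 to Irs2 within each library, 1 point per library with a line at the geometric mean of the group. MGWT is the highest group for Igf1r to Insr, at 0.507 to 0.657, and the lowest for Irs1 to Irs2, at 0.727 to 1.381.

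The docking proteins parted in the glands. Irs1 (chr1:82233101-82291416, minus strand) had 10692, 7013 and 9986 normalized counts in MGWT, 10521, 8343, 7051 and 7634 in MGN and 5111, 8789.9, 6260.5 and 7270.0 in MGNP. The tumors had 15995, 7703, 13670.5 and 11957 in TN and 11519, 12981, 11716 and 15689 in TNP. The 3 gland groups overlapped, neither gland group was called against MGWT (adjusted p = 0.581 and 0.155), and the TNP tumors were above every gland. Irs1 was 1.92-fold higher in TNP than in MGNP (log2 fold change 0.94, SE 0.19, adjusted p = 0.00345) and 1.42-fold higher than in MGWT (log2 fold change 0.50, SE 0.18, adjusted p = 0.0321). The latter call was lost without MGWT replicate 2, TNP replicate 2 or TNP replicate 4 (adjusted p = 0.117, 0.0624 and 0.0713). TN against MGN was not called (log2 fold change 0.52, SE 0.24, 95% interval -0.02 to 1.07, adjusted p = 0.0969), and leaving out TN replicate 2, its lowest library, gave a call (log2 fold change 0.73, adjusted p = 0.0132). Without MGNP replicates 2 and 4, Irs1 was called lower in MGNP than in MGWT (log2 fold change -0.68, adjusted p = 0.0332).

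Irs2 (chr8:10984681-11008458, minus strand) had 7742, 9644 and 10189 normalized counts in MGWT, 1018, 1874, 1565 and 1381 in MGN and 1479, 1499, 2685 and 1033 in MGNP. In tumors the counts were 2664, 858, 3038 and 2565 in TN and 5064, 4333, 2733 and 3567 in TNP. MGWT was above all other libraries and TNP above all 8 glands of tumor-bearing mice, while TN replicate 2 was the lowest of the 19. Irs2 was 6.4-fold lower in MGN (log2 fold change -2.68, SE 0.21, adjusted p = 2.54e-05) and 5.79-fold lower in MGNP (log2 fold change -2.53, SE 0.30, adjusted p = 0.000845) than in MGWT. In TNP it was 2.43-fold higher than in MGNP (log2 fold change 1.28, SE 0.30, adjusted p = 0.0066) and 2.39-fold lower than in MGWT (log2 fold change -1.25, SE 0.21, adjusted p = 0.000748), and in TN it was 4.44-fold lower than in MGWT (log2 fold change -2.15, SE 0.42, adjusted p = 0.00355). TN against MGN was not called (log2 fold change 0.53, SE 0.39, 95% interval -0.37 to 1.42, adjusted p = 0.288) but was without TN replicate 2 (log2 fold change 0.95, adjusted p = 0.00792). The muscle score as a covariate reduced both values and ended the calls for MGNP against MGWT (log2 fold change -0.82, adjusted p = 0.341) and for TNP against MGNP (log2 fold change 0.21, adjusted p = 0.635), and without MGNP replicates 2 and 4 both stood (adjusted p = 0.000927 and 0.0376).

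The ratio of Irs1 to Irs2 was 1.38, 0.727 and 0.98 in MGWT, 10.3, 4.45, 4.51 and 5.53 in MGN, 3.46, 5.87, 2.33 and 7.04 in MGNP, 6, 8.98, 4.5 and 4.66 in TN and 2.27, 3, 4.29 and 4.4 in TNP. Counts of the 2 genes, not corrected for gene length, were near parity in the wild type glands, and Irs1 exceeded Irs2 in every other library. Per kilobase of exon the MGWT means were 1454 for Irs2 and 1009 for Irs1. No TNP ratio reached the lowest TN ratio. The mean log2 ratio was lower in TNP than in TN by 0.785 (n = 4 and 4, SD 0.454 and 0.46, two-sided exact permutation p = 0.0286, the smallest allowed, and 0.0508 after adjustment). The 4 comparisons with MGWT also gave 0.0286 by the exact permutation test and 0.0508 after adjustment.

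Among the binding proteins, Igfbp2 and Igfbp5 are neighbors on chromosome 1, chr1:72824503-72852474 on the plus strand and chr1:72857932-72874884 on the minus strand, with 5457 bases between them. Whether reads were counted by strand is not given in the sources used here. Igfbp2, an abundant IGF binding protein in serum and many tumors, was low in glands and higher in tumors. It had 90, 63.9 and 78.5 normalized counts in MGWT, 16.6, 115, 72.3 and 9.3 in MGN and 40.1, 41.4, 74.7 and 12.9 in MGNP, and 254, 104, 498 and 124 in TN and 299, 265, 646 and 1089 in TNP. TNP was above all glands, and TN overlapped MGN in 1 pair of libraries, TN replicate 2 and MGN replicate 2. Igfbp2 was 13.2-fold higher in TNP than in MGNP (log2 fold change 3.73, SE 0.61, adjusted p = 0.00107) and 6.26-fold higher than in MGWT (log2 fold change 2.65, SE 0.47, adjusted p = 0.00105), and the former call was lost with the muscle score as a covariate (log2 fold change 3.49, adjusted p = 0.0523). For TN against MGN it was 5.75-fold higher (log2 fold change 2.52, SE 0.83, adjusted p = 0.0318). That call was lost in edgeR (adjusted p = 0.0519) and without MGN replicate 1 or 4 or TN replicate 1 or 3 (adjusted p = 0.0823, 0.0773, 0.0643 and 0.075). The luminal score, which was 13.19 to 13.38 in MGWT, 10.59 to 11.88 in MGN, 10.10 to 11.90 in MGNP, 12.79 to 13.04 in TN and 12.84 to 13.59 in TNP, was higher in tumors than in MGN and MGNP glands as well. The luminal list includes Krt19, which was 17055 to 21111 in MGWT and at most 215.1 in TN and 1512 in TNP. The luminal markers together took 0.2811 to 0.306% of reads in MGWT, 0.365 to 0.6625% in TN and 0.4339 to 0.5647% in TNP. Igfbp2 was below every tumor in MGWT, and the part of luminal cells in its values was not tested.

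Igfbp5, which is associated with involution of the gland after lactation, was the most abundant member per kilobase of exon in 3 groups. Its normalized counts were 75662, 127771 and 89099 in MGWT, 19334, 16549.9, 17069 and 14472 in MGN and 15937, 27720.0, 18843 and 14856 in MGNP. The tumors had 190025, 13207, 161527 and 46562 in TN and 57994, 70892, 133297 and 110269.8 in TNP. The glands of tumor-bearing mice formed a low group below every MGWT gland and every TNP tumor, and the TN tumors ranged from below all glands (replicate 2) to above every other library (replicates 1 and 3). Igfbp5 was 5.67-fold lower in MGN (log2 fold change -2.50, SE 0.21, adjusted p = 3.4e-05) and 5.07-fold lower in MGNP (log2 fold change -2.34, SE 0.28, adjusted p = 0.000799) than in MGWT, and 4.7-fold higher in TNP than in MGNP (log2 fold change 2.23, SE 0.32, adjusted p = 0.000572). TN against MGN missed the threshold (log2 fold change 1.97, SE 0.76, 95% interval 0.25 to 3.70, adjusted p = 0.0556) and was called by edgeR, by DESeq2 and without TN replicate 2 (adjusted p = 0.0174, 0.000269 and 0.00265). The muscle score as a covariate ended the MGNP against MGWT call with a value no smaller (log2 fold change -2.67, adjusted p = 0.073), while leaving out MGNP replicates 2 and 4 did not (adjusted p = 0.000535). For TNP against MGNP the value with the covariate was larger and still called (log2 fold change 2.90, adjusted p = 0.00844).

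Igfbp4 (chr11:99041244-99054392, plus strand), an inhibitor of IGF action that the protease PAPPA cleaves, followed the order of Igf1 in the means. It had 2523, 3354 and 2961 normalized counts in MGWT, 7345, 10309, 6652 and 5952 in MGN and 4249, 4940.2, 7073 and 5019 in MGNP, with 1027, 903, 3536 and 6232 in TN and 635, 650.2, 1447 and 990.1 in TNP. All 8 glands of tumor-bearing mice were above MGWT and all TNP tumors below it, while TN replicates 3 and 4 lay above every MGWT gland. Igfbp4 was 2.53-fold higher in MGN (log2 fold change 1.34, SE 0.20, adjusted p = 0.000629) and 1.78-fold higher in MGNP (log2 fold change 0.84, SE 0.20, adjusted p = 0.0117) than in MGWT. In TNP it was 5.95-fold lower than in MGNP (log2 fold change -2.57, SE 0.28, adjusted p = 0.000141) and 3.33-fold lower than in MGWT (log2 fold change -1.74, SE 0.28, adjusted p = 0.000637). In TN it was 3.48-fold lower than in MGN (log2 fold change -1.80, SE 0.59, adjusted p = 0.031), a call that held without TN replicate 3 or 4 and was lost without any other library (adjusted p from 0.0529 to 0.0783) and in edgeR (adjusted p = 0.0853). The MGNP against MGWT call was lost without MGWT replicate 1 (adjusted p = 0.0548), with the muscle score as a covariate (log2 fold change 1.64, adjusted p = 0.0681) and with all 5 groups in a single fit (log2 fold change 0.84, adjusted p = 0.185).

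Igfbp7 (chr5:77349240-77408041, minus strand), a secreted relative of the binding proteins with weaker affinity for IGFs, had 1940.0, 2588 and 2010.0 normalized counts in MGWT, 4692, 7682, 5314 and 4460.4 in MGN and 4993, 3133, 4639 and 3100.4 in MGNP. The tumors had 1638, 1291, 2439.8 and 1203 in TN and 1573, 1404, 2565 and 2085 in TNP. Glands of tumor-bearing mice were above all MGWT glands and all tumors, and tumors overlapped MGWT. Igfbp7 was 2.5-fold higher in MGN (log2 fold change 1.32, SE 0.20, adjusted p = 0.000799) and 1.79-fold higher in MGNP (log2 fold change 0.84, SE 0.22, adjusted p = 0.0177) than in MGWT, and the latter call was lost without MGWT replicate 1 or 3 (adjusted p = 0.0729 and 0.0688) and once the muscle score was added to the fit (log2 fold change 1.72, adjusted p = 0.0811). It was 3.42-fold lower in TN than in MGN (log2 fold change -1.78, SE 0.26, adjusted p = 0.000785) and 2.09-fold lower in TNP than in MGNP (log2 fold change -1.06, SE 0.24, adjusted p = 0.00566), where the muscle score as a covariate ended the call (log2 fold change -1.15, adjusted p = 0.089). The endothelial score was 11.24 to 12.17 in MGN, 11.06 to 11.80 in MGNP, 10.38 to 10.91 in MGWT, 8.64 to 9.73 in TN and 8.72 to 9.30 in TNP, with 6 of 6 markers called lower in TN than in MGN and in TNP than in MGNP. Only 3 of 6 endothelial markers were called higher in MGN and in MGNP than in MGWT. The parallel was not particular to endothelium. Over the 19 libraries Pearson's r of Igfbp7 was 0.890 with the endothelial, 0.892 with the fibroblast and 0.861 with the adipocyte score, and -0.729 with the luminal score. The part of any of these cell types in the Igfbp7 values was not tested.

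Igfbp3 (chr11:7206086-7213923, minus strand), the main serum carrier of IGFs together with IGFALS, changed least among the binding proteins. Its normalized counts were 2296, 3047 and 1676 in MGWT, 889, 1734, 868 and 2224 in MGN, 2111, 875, 1702 and 1915 in MGNP, 2339, 2988, 2976 and 1874 in TN and 2522, 2534, 2174 and 2558 in TNP. TNP lay above MGNP without overlap, and TN overlapped MGN. Igfbp3 was 1.9-fold higher in TN than in MGN (log2 fold change 0.93, SE 0.33, adjusted p = 0.0414), a call kept in 3 of the 8 fits that each left out 1 library and lost in the other 5, those without MGN replicate 1 or 3 or TN replicate 1, 2 or 3 (adjusted p from 0.0621 to 0.106), and in edgeR (adjusted p = 0.0639). TNP against MGNP was not called (log2 fold change 0.64, SE 0.26, 95% interval 0.05 to 1.23, adjusted p = 0.0625) and was called without MGNP replicate 1 (adjusted p = 0.039). Against MGWT, MGN was not called (log2 fold change -0.79, SE 0.37, 95% interval -1.63 to 0.05, adjusted p = 0.0954) but was without MGN replicate 4 (adjusted p = 0.026).

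Levels of different genes were compared per kilobase of merged exon. Igfbp5 was the highest member in MGWT (16236 ± 4504 normalized counts per kilobase, SD, n = 3), in TN (17121 ± 14338, SD, n = 4) and in TNP (15503 ± 5797, SD, n = 4). Igfbp7 was first in MGN (4579.9 ± 1219.7, SD, n = 4) and MGNP (3281 ± 820.3, SD, n = 4), where Igfbp5 was second (2807 ± 332 and 3220.0 ± 972). Igf1 ranked 6 of 10 in MGN (472 ± 97.7 per kilobase) and last in both tumor groups (28.5 ± 33.6 in TN and 17.8 ± 3.12 in TNP). Irs2 ranked 3 in MGWT (1454 ± 203 per kilobase) and 8 in MGN (231 ± 56.6). For each member the 5 group means were ordered and neighbors compared by the two-sided exact permutation test, and none of the 40 neighbor pairs passed correction (smallest adjusted p = 0.1905). With groups this small the permutation test cannot go below p = 0.0286, which correction over 40 pairs raised to 0.1905. A pair could pass only if many more pairs reached that minimum, so the lack of calls says little about the order. Neighbors without overlap were MGN over MGNP and MGNP over MGWT for Igf1, MGWT over MGN for Igf1r, MGWT over TNP for Irs2, TN over MGWT for Igfbp2, and MGNP over MGWT for Igfbp4 and for Igfbp7.

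Mutant p53 in fibroblasts was addressed by MGNP against MGN and TNP against TN. The gland comparison does not isolate the mutation, since 3 MGN glands lacked Fsp-Cre and all 4 MGNP glands carried it. Muscle markers also took 0.0478 to 7.26% of reads in MGNP against 0.0012 to 0.0506% in MGN. These differences cannot be told apart from the mutation here. In the glands 0 of 10 members and 0 of 18563 genes were called by limma (0%), 1950 genes had an unadjusted p under 0.05, edgeR called 0 and DESeq2 called 716. Among members Igf1 and Igfbp4 had an unadjusted p under 0.05, and Igf1 was the 1 member called by DESeq2. Igfbp4 had log2 fold change -0.50, SE 0.22, 95% interval -0.997 to -0.01, adjusted p = 0.467, and Igfbp7 had log2 fold change -0.48, SE 0.23, 95% interval -1.01 to 0.05, adjusted p = 0.524. The intervals for Igf1r (-0.49 to 0.38) and Insr (-0.60 to 0.40) leave out a 2-fold difference, and that for Igfbp2 (-1.87 to 2.00) does not. MGN replicate 1, the only MGN gland with Cre, lay inside the range of the other 3 for 5 members, above it for Insr, Irs1 and Igfbp5, and below it for Igf1r and Irs2.

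In the tumors 0 of 10 members and 7 of 16638 genes were called by limma (0.0421%), 1210 genes had an unadjusted p under 0.05, edgeR called 0 and DESeq2 called 120, none of them a member. Groups did not overlap for 0 members and for 4.21% of genes. Irs2 alone among members had an unadjusted p under 0.05 (log2 fold change 0.90, SE 0.39, 95% interval 0.01 to 1.79, adjusted p = 0.684, unadjusted p = 0.0488). The groups overlapped because TN replicate 3 exceeded TNP replicate 3. Igfbp2 had log2 fold change 1.27, SE 0.59, 95% interval -0.08 to 2.62, adjusted p = 0.693, and Igfbp4 had log2 fold change -1.28, SE 0.61, 95% interval -2.67 to 0.11, adjusted p = 0.695. The TN tumors were the more variable group: the SD of log2 values was 1.79 in TN and 0.555 in TNP for Igfbp5, 1.495 and 0.24 for Igf1, and 1.36 and 0.56 for Igfbp4. Whether the tumor against gland difference differed between genotypes was tested over 16 samples, and 0 members and 0 of 19367 genes were called by limma, with 1536 genes at an unadjusted p under 0.05, 0 called by edgeR and 356 by DESeq2, no member among them. The member with the smallest p was Igfbp7, 0.71 (SE 0.37, adjusted p = 0.673), followed by Irs2, 0.75 (SE 0.53, adjusted p = 0.776), on the log2 scale. Members called in only 1 of the tumor comparisons are therefore not shown to differ between genotypes.

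The direct comparisons of tumors with wild type glands shared the 3 MGWT samples with the gland comparisons and are given side by side. TN had 2 of 10 members called lower (Igf1r and Irs2) and 0 higher, against 30.6% and 25.7% of all genes. In TN 4 members had an unadjusted p under 0.05 by limma, beside 11297 of 18236 genes. For the same comparison edgeR and DESeq2 each called 3 members, beside 10187 and 11030 genes. TNP had 5 lower (Igf1, Igf1r, Insr, Irs2 and Igfbp4) and 2 higher (Irs1 and Igfbp2), against 37% and 32.7%, and 1 higher with a 2-fold change also required, against 19.8%. Groups did not overlap for 3 members in TN and 7 in TNP, against 60.7% and 69.9% of all genes. Igf1r was 3.2-fold lower in TN (log2 fold change -1.68, SE 0.40, adjusted p = 0.009) and 4.91-fold lower in TNP (log2 fold change -2.29, SE 0.18, adjusted p = 1.16e-05). Igfbp5 and Igfbp7 were not called in either tumor group against MGWT (log2 fold change of Igfbp5 -0.53 and -0.11, of Igfbp7 -0.45 and -0.22).

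Of 26 other genes of the IGF and growth hormone pathway, 20 to 23 could be tested in each comparison. In MGN against MGWT 5 of 23 were called higher and 12 lower, beside 30% and 29.2% of all genes, and in MGNP against MGWT 5 and 9 of 23, beside 22.4% and 24%. In TN against MGN 4 of 22 were higher and 9 lower, beside 23.5% and 27.8%, and in TNP against MGNP 5 and 10 of 22, beside 26.2% and 29.3%. Median log2 fold changes of the genes tested from the list were -0.71, -0.36, -0.45 and -0.43 in these 4 comparisons, beside 0.02, 0.02, -0.05 and -0.07 over all genes tested. No gene of the list was called between MGNP and MGN or between TNP and TN, where 5 of 23 and 1 of 20 had an unadjusted p under 0.05, beside 1950 of 18563 and 1210 of 16638 of all genes. Among those called, Irs3, a docking protein of rodent adipocytes, had the largest change in both gland comparisons. It had 20 to 34.7 normalized counts in MGWT, 516 to 955 in MGN, 209.8 to 1125 in MGNP, 6.3 to 29.3 in TN and 10.1 to 36.6 in TNP, and was higher in MGN than in MGWT (log2 fold change 4.63, SE 0.28, adjusted p = 8.07e-06). Ghr, the growth hormone receptor, had 1109 to 1578 in MGWT, 17915 to 26201 in MGN and 8649.8 to 18921 in MGNP, with log2 fold changes of 4.07 and 3.32 (SE 0.17 and 0.28). Stc2, an inhibitor of PAPPA, moved the other way, from 7088 to 8699.7 in MGWT to 1162 to 1318 in MGN and 588 to 2835 in MGNP (log2 fold change -2.62, SE 0.11, adjusted p = 1.48e-06 in MGN). Adipocyte markers, given above, were higher in the same gland groups as Irs3 and Ghr, and their part was not tested.

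In tumors the other ligand, Igf2, was near the floor. It had 95.5 to 192 normalized counts in MGN and 176 to 386 in MGNP, and 0 to 26.3 in TN (0 to 26 reads) and 0 to 10 in TNP (0 to 8 reads). It was lower in TN than in MGN (log2 fold change -4.83, SE 0.88, adjusted p = 0.00217) and in TNP than in MGNP (log2 fold change -6.09, SE 0.69, adjusted p = 0.000161), and in MGN than in MGWT (log2 fold change -1.57, SE 0.26, adjusted p = 0.00119), where Igf1 was higher. In MGNP against MGWT, where Igf1 was also higher, Igf2 overlapped between the groups and was not called (log2 fold change -0.36, SE 0.29, adjusted p = 0.334). Igfbp6, which prefers IGF2, had 1729.7 to 2546 in MGN and 991 to 2240.4 in MGNP against 32.7 to 263 in TN and 34.8 to 96.4 in TNP (log2 fold change -4.76, SE 0.61, adjusted p = 0.000451 and log2 fold change -4.57, SE 0.37, adjusted p = 3.68e-05). Irs3 was lower in TN than in MGN and in TNP than in MGNP (log2 fold change -5.08, SE 0.48, adjusted p = 0.000136 and log2 fold change -4.26, SE 0.58, adjusted p = 0.000432). Pappa, the protease that cleaves IGFBP4, was among the 3 largest changes of tumors against MGWT, at 1268 to 3070.5 in MGWT, 29.2 to 304 in TN and 31.7 to 96.1 in TNP (log2 fold change -4.63, SE 0.75, adjusted p = 0.00145 and log2 fold change -5.07, SE 0.46, adjusted p = 2.69e-05). The other 2 there were Igf2 (log2 fold change -6.40, SE 0.97, adjusted p = 0.00111 and log2 fold change -6.46, SE 0.72, adjusted p = 7.72e-05) and Stc2 (log2 fold change -6.45, SE 0.53, adjusted p = 8.63e-05 and log2 fold change -5.31, SE 0.40, adjusted p = 1.13e-05).

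The genes whose log2 values were most like those of each member over the 19 libraries were searched among 14781 genes with a mean of at least 50 normalized counts. The libraries fall into tissue groups and share their scaling, so Pearson's r, given in parentheses, describes mainly the order of the groups. For Igf1 the closest were Sgce (0.989), Tmeff2 (0.988) and Nova1 (0.987), and for Igfbp4 Twist1 (0.955), Pcsk5 (0.924) and Adamtsl3 (0.923). For Igfbp7 they were Slc9a9 (0.959), Sept4 (0.951) and Adap2 (0.947). For the receptors they were Rbms1 (0.952), Ino80 (0.943) and Plagl2 (0.938) with Igf1r, and Sh3glb1 (0.894), Fam241a (0.893) and Cpeb3 (0.880) with Insr. For the docking proteins they were Tmed3 (0.897), Deptor (0.879) and Ryk (0.874) with Irs1, and 1700017B05Rik (0.944), Stk19 (0.939) and Ppp2r3d (0.939) with Irs2. Igfbp5 was closest to Inhbb (0.917), Anpep (0.915) and Hacd3 (0.912), and Igfbp2 to Nsmf (0.915), Tacr3 (0.895) and Crip2 (0.892). Igfbp3 had the lowest likeness of the 10, with Zscan2 (0.743), Phf23 (0.740) and Itpr2 (0.732).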

How the data were processed

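By the sample records RNA came from total RNA purification and libraries from a stranded total RNA kit, whereas the paper's methods name an mRNA kit. The submitters' processing notes name TopHat2 2.1.1, Bowtie2, GRCm38 and mm10. The counting tool, its annotation and its use of strand are not given in the sources used here. The signal deposited by the authors was a table of DESeq2 normalized counts, 1 column per library, so the scaling of the authors is part of every value. With a tolerance of 0.05 reads, 100% of values were whole multiples of a library's step, and reads were recovered by dividing by it. In TN replicate 3 the size factor was 0.9902, close to 1, but its values were not whole reads, as with Igf1 at 776.6 normalized counts against 769 reads. Columns were assigned by the titles, and 0 were left unused.

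Symbols, positions and exon lengths were taken from GENCODE vM21, which named 97.97% of identifiers. Each comparison used only its 2 groups. Genes reaching 10 normalized counts in a number of samples no smaller than the smaller group were fitted as log2(normalized count + 1) with limma 3.58.1 (lmFit, eBayes with trend, R 4.3.3), adjusted by Benjamini-Hochberg over all genes tested, and called at 0.05, the cutoff of the study. The script was tested on simulated data. Ratios and group orders used a two-sided exact permutation test. Alternatives included edgeR 4.0.16 and DESeq2 1.42.0 on recovered reads, and those given below. Libraries held 20899152 to 62645459 reads, and the limma fits used no weight for depth. The limma p-values set each difference against the spread between the samples of a group.

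The members, gene lists and tests were chosen with earlier results of these data known. The genes named were all members, the 3 other pathway genes with the largest absolute log2 fold change among those called in each comparison, and the 3 genes most like each member.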

Additional observations from a re-analysis of the deposited data

Results flagged for a closer look

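Each member was checked in each group of 4 samples for a single library far from the others, 40 groups in all, and chance marks about 1 group in 20 by this measure. In all 2 libraries were flagged, no more than that rate gives. The check used normalized counts and was not run on log2 values, the scale of the limma fits. In TN, Igf1 in replicate 3 was 776.6 normalized counts against 82.2 to 181.8 in the other 3 tumors, so that the gap took 0.857 of the range of the group, past Dixon's 95% critical value for 4 samples. The fibroblast score of that tumor was 12.76, the highest of the 8 tumors. Its adipocyte, muscle, macrophage, endothelial, lymphocyte and basal scores were also the highest of the 8. The part of any of these scores in the Igf1 value was not tested. In TNP, Igfbp3 in replicate 3 was 2174.3 normalized counts against 2522 to 2558 in the other 3 tumors, where the gap took 0.904 of the range. Without that library the log2 fold change of Igfbp3 in TNP against TN was 0.02.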

How the results depend on the processing

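Of the alternatives run for members that were called, 608 kept direction and call and 47 lost the call, and none changed direction. For members that were not called, 1052 were unchanged in direction and call, 29 gained a call and 43 changed direction. The cause of these changes was not tested. With at least a 2-fold change required, members called higher were 1 in MGNP against MGWT, 1 in TN against MGN and 1 in TNP against MGWT, and those lower in TNP against MGNP were 3. With the skeletal muscle score as a covariate, MGNP against MGWT had 0 higher and 1 lower, and TNP against MGNP had 2 higher and 2 lower. The score did not overlap between the groups in either comparison (9.746 to 17.603 in MGNP, 2.421 to 2.873 in MGWT and 3.248 to 8.833 in TNP). The share of all genes called in these fits is not given here, so the counts cannot be read as particular to the members. Of the 5 calls lost in the former, the log2 fold changes of Igf1, Igfbp4, Igfbp5 and Igfbp7 were no smaller with the covariate (2.00, 1.64, -2.67 and 1.72, against 1.81, 0.84, -2.34 and 0.84 without it), and that of Irs2 fell to -0.82 from -2.53. In the latter, Igfbp2 and Igfbp7 kept 3.49 and -1.15 (3.73 and -1.06 without it), while Igf1r, Insr and Irs2 went to -0.33, -0.46 and 0.21 (from -0.87, -0.80 and 1.28). With edgeR 1 member was higher in TN against MGN and 1 in TN against MGWT, where 9073 of 17950 and 10187 of 18236 genes were called in either direction. With DESeq2 1 member was lower in MGNP against MGN and 1 higher in TN against MGWT, where 716 of 18563 and 11030 of 18236 genes were called in either direction. With all 5 groups in a single fit 1 was higher in TNP against MGWT. Leaving out 1 library at a time gave 1 to 3 members higher in MGNP against MGWT, 0 to 4 in TN against MGN, 0 to 2 in TN against MGWT and 1 to 2 in TNP against MGWT, and 2 to 4 lower in TN against MGWT. No share over all genes is given for the single fit, the fits without 1 library or the replicate block below. Those counts, too, cannot be read as particular to the members.

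Groups share replicate numbers, but deviations of same-numbered samples correlated between -0.257 and 0.285, so the numbers were not taken to pair samples. A fit with the replicate block gave 1 member higher in TN against MGWT (Igfbp2) and 1 in TNP against MGWT (Igfbp2). It ended the calls of Igfbp3 and Igfbp4 in TN against MGN and of Irs1 in TNP against MGWT (adjusted p = 0.0686, 0.0530 and 0.0999), and added Igfbp5 in TN against MGN and Igfbp3 in MGN against MGWT (0.0476 and 0.00392, limma adjusted p).

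All log2 fold changes that changed direction were of members not called. With the muscle score these were Insr (-0.97), Igfbp2 (1.37) and Igfbp3 (0.17) in MGNP against MGWT, and Igfbp2 (-0.20) and Igfbp5 (-0.0527) in MGNP against MGN. Without MGNP replicates 2 and 4, a choice made after seeing the data, they were Insr in MGNP against MGWT (-0.058) and in the interaction (0.0257). With edgeR and DESeq2 they were Igfbp2 in MGNP against MGN (-0.30 and -0.31), Igfbp5 in TNP against TN (-0.15 and -0.16), Igfbp4 (0.0445 and 0.0135) and Igfbp5 (0.14 and 0.10) in TN against MGWT, and Igfbp5 in the interaction (-0.32 and -0.34). Averaging TNP replicates 1 and 2 gave 0.0457 for Igfbp5 in TNP against MGWT. Leaving out single libraries gave ranges in MGNP against MGN of -0.24 to 0.0505 for Insr, -0.11 to 0.35 for Irs2, -0.53 to 0.64 for Igfbp2, -0.15 to 0.0633 for Igf1r and -0.0265 to 0.27 for Igfbp5. In TNP against TN they were -0.10 to 0.25 for Irs1, -0.17 to 0.0525 for Igfbp3, -0.35 to 0.93 for Igfbp5 and -0.42 to 0.66 for Igf1. Against MGWT they were -0.0818 to 0.35 for Igfbp3 and -1.04 to 0.24 for Igfbp5 in TN, and -0.12 to 0.32 for Igfbp3 and -0.31 to 0.10 for Igfbp5 in TNP, and in the interaction -0.51 to 0.77 for Igfbp5.

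Depth limits Igfbp2 in MGN and MGNP most, where the lowest library held 9.27 normalized counts, and Igf2 in tumors. Trimmed-mean scaling moved libraries by -0.08 to 0.07 on the log2 scale. The MGWT glands differ from the others in depth and in cell type markers together, and these cannot be told apart from genotype here.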
